A study of Mus musculus with 8 samples.

Results

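The 9 genes described here encode the vascular endothelial growth factors Vegfa, Vegfb and Vegfc, their receptors Flt1 and Kdr, the angiopoietins Angpt1 and Angpt2, and the angiopoietin receptor Tek with its relative Tie1. They were taken by name: every probe whose RefSeq accession maps to one of these symbols was used, which gave 11 of the 39429 probes and 9 of the 19987 symbols on the array. Vegfa and Kdr had 2 probes each and the other genes 1. RNA was measured in 8 hearts of male C57BL6 mice, 4 labelled control and 4 labelled dtg, with a separate 1-colour array per heart. Controls were positive for Cre and had no floxed IGF-1R. The dtg genotype was merCremer/+ IGFloxP/IGFloxP, in which merCremer is a tamoxifen-activated Cre recombinase. Both groups were treated at 8 months of age with 500 µg of 4OH-tamoxifen in 100 µl of peanut oil on each of 10 days, which in dtg mice is meant to remove an exon of the IGF-1 receptor gene, and hearts were taken 6 weeks later. The sources used here do not name the promoter that drives merCremer. The comparison asks how loss of that receptor bears on expression in the adult heart. Nothing in the labels ties each sample to an animal of its own, and the p-values below therefore speak to the spread among the 8 samples, part of which may be technical.

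Vascular endothelial growth factors are secreted proteins that bind receptor tyrosine kinases on endothelial cells. Kdr (VEGF receptor 2) carries most of the signal for endothelial growth and permeability, whereas Flt1 (VEGF receptor 1) binds its ligands tightly, signals weakly and can act as a decoy. Angpt1 activates the receptor Tek, also called Tie2, and keeps vessels quiescent, Angpt2 modulates or antagonises that signal, and Tie1 is a relative of Tek without a well-defined ligand of its own. In the heart the receptors lie mainly on the dense capillary endothelium, and cardiomyocytes are a main source of Vegfa and Vegfb. Whole hearts were measured, so fewer cells of a type and less RNA per cell cannot be told apart.

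All values below are log2 processed signals from which the array's 75th percentile was subtracted, so that 0 is the 75th percentile of that array's spots. Brightness depends on each probe's sequence, and the levels of different probes are not set against each other. All 11 probes lay well above background on 8 of 8 arrays. Across the arrays 59.1% to 71.5% of probes did, with means of 64.9% ± 4.8 (SD, n = 4) for controls and 67.1% ± 4.41 (SD, n = 4) for dtg hearts, and no spot was saturated. Markers of cardiomyocytes were bright in every heart (10 of 10 kept, mean log2 signal 7.66 to 7.73 in control and 7.69 to 7.81 in dtg hearts), and all 15 endothelial markers were measured. The arrays lay on 2 slides. Slide 1 held control 1, control 2, dtg 1 and dtg 4, and slide 2 held control 3, control 4, dtg 2 and dtg 3. Control 4, dtg 3 and dtg 4 had no close partner, with Pearson's r across genes between 0.973 and 0.988 to any array, where each of the other 5 had a partner at 0.9945 or higher. Among the members, differences without these 3 hearts are given for Vegfa, Angpt1, Flt1, Kdr, Tie1 and Tek.

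The single probe of the targeted gene, Igf1r, read 0.06, 0.10, 0.26 and 0.92 in controls 1 to 4 and -0.41, -0.32, 0.06 and 0.30 in dtg 1 to 4. The mean was lower in dtg hearts by a log2 difference of -0.43 (SE 0.24), the groups overlapped, and limma gave an adjusted p of 1. It was -0.13 within slide 1 and -0.72 within slide 2. No source used here places the probe inside or outside the targeted exon, so the labels are not checked by it.

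No member passed the test between dtg and control hearts. By limma with Benjamini-Hochberg adjustment, 0 of the 9 genes passed an adjusted p of 0.05, as did 0% of the 21434 genes and unnamed features tested. At an unadjusted p of 0.05 the count was 0 of 9, against 0.76% of all features, and the smallest unadjusted p of a member was 0.355, for Tie1. In no member did the 4 values of one group lie wholly on one side of the other, which they did for 0.546% of all features. Means in dtg hearts were lower for 7 of the 9 and higher for Vegfa and Vegfc, where 42.6% of all features were lower. The median difference was -0.086 over the members and 0.021 over all features. That count was 7 with quantile normalization, 8 with median scaling, 4 with array weights and 4 with normexp background correction. In that order, the median difference over all features was -0.012, -0.065, -0.0038 and -0.067. The share of all features lower in each of these settings is not given here. Without control 4, dtg 3 and dtg 4 (slide blocked) 5 members were lower, and 5 with the mean of atrial markers as a covariate. The medians over all features were 0.0059 and 0.027 there. Normexp fitted a background of -1740 on control 4 and -461.9 on dtg 4. The count was 8 when normexp was run without dark spots, meaning those below their own local background. The 95% intervals of the 9 differences were widest for Angpt1 and Kdr and narrowest for Vegfc and Angpt2.

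**Figure D1:**
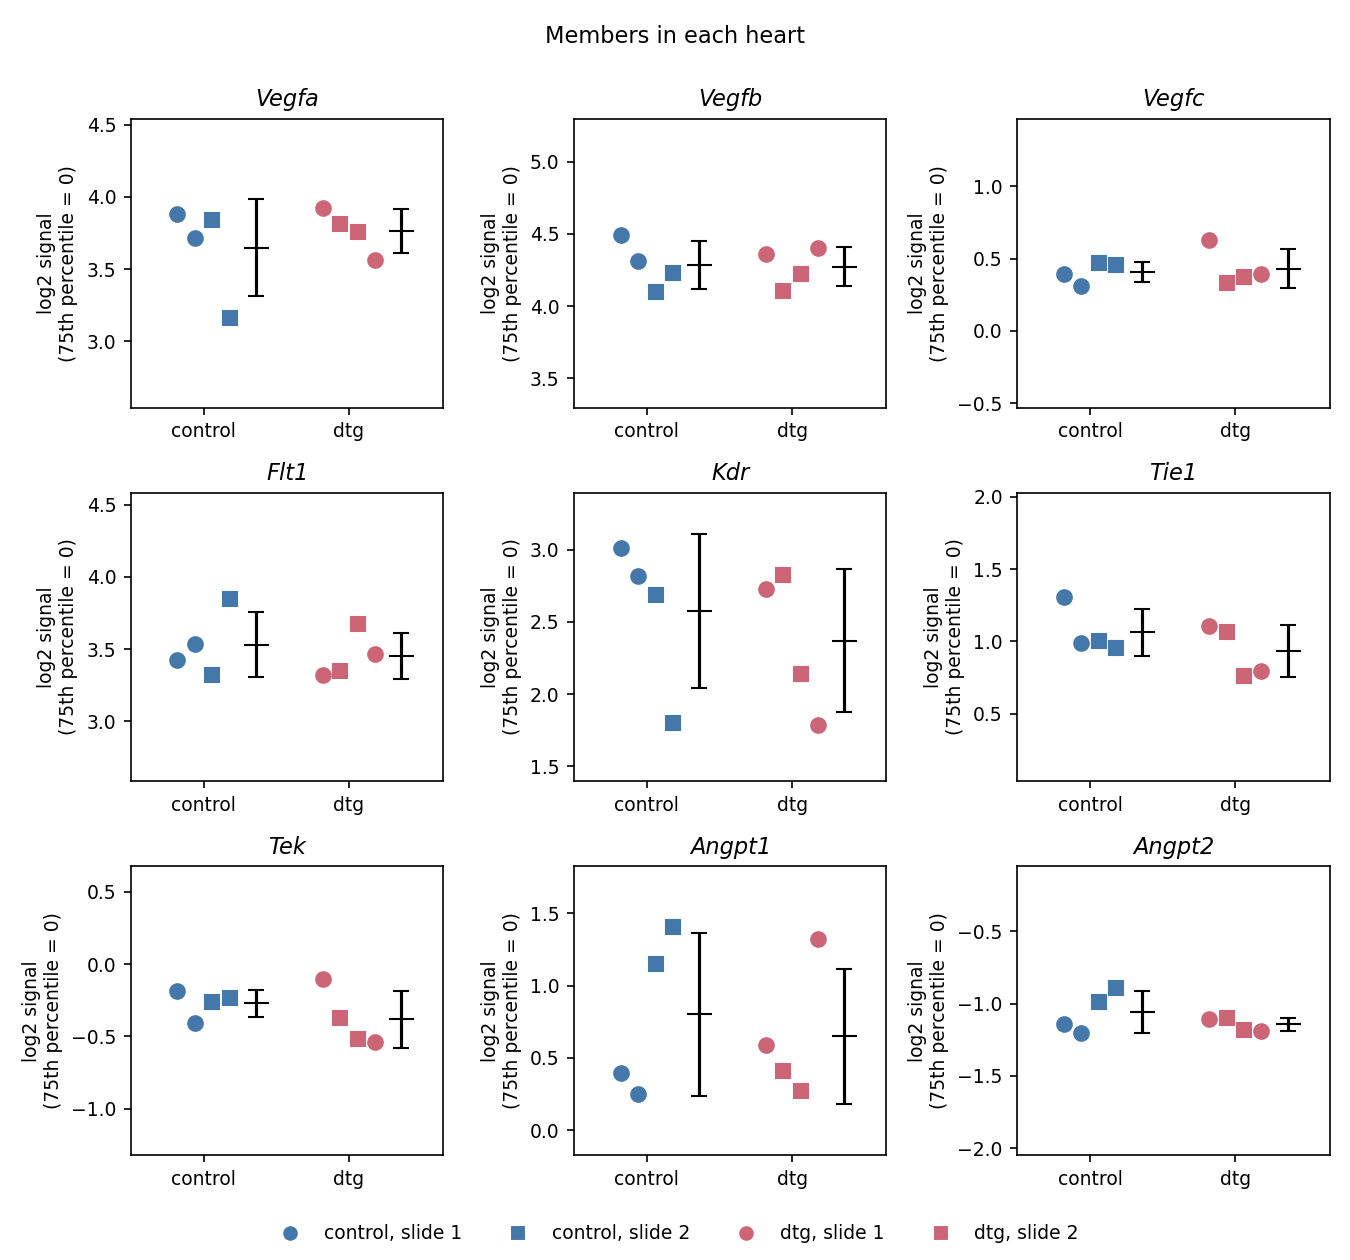
Log2 signal of the 9 members in each heart (array's 75th percentile at 0), by group (blue control, red dtg) and slide (circles slide 1, squares slide 2), with black bars for the group mean and SD (n = 4); every panel spans 2 log2 units. The groups overlap in each panel, and at these probes, the brightest of each gene, Kdr and Angpt1 show the widest spread, with ranges of 1.22 and 1.16.

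The promoters of the endothelial receptors Tek, Tie1 and Kdr are shown because the signals of these 3 genes, for Kdr at the brighter of its 2 probes, were below their 8-heart mean in dtg 3 and dtg 4. The other Kdr probe was above its mean in dtg 4. Being below the mean in both hearts was not particular to these receptors. The ligands Vegfc (-0.047 and -0.026 from its mean) and Angpt2 (-0.081 and -0.088) were below theirs there too. Each line gives the 250 bases before the annotated start in RefSeq (GRCm38.p6), in the direction of transcription, for Tek at chr4:94739039-94739288 on the plus strand, Tie1 at chr4:118489850-118490099 on the minus strand and Kdr at chr5:75978456-75978705 on the minus strand. Capitals mark GGAA or its reverse complement TTCC, the core that ETS transcription factors recognise, which is known from the control regions of many endothelial genes.
Tek: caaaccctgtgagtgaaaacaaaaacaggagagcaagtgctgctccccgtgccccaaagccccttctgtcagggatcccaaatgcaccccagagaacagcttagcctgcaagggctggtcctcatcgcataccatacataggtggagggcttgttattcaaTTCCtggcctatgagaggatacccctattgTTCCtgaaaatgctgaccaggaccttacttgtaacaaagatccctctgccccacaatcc
Tie1: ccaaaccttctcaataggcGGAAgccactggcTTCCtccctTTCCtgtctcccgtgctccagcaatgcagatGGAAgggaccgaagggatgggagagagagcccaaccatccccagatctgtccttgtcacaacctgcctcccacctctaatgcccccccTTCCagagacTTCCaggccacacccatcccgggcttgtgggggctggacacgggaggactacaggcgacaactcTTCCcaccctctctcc
Kdr: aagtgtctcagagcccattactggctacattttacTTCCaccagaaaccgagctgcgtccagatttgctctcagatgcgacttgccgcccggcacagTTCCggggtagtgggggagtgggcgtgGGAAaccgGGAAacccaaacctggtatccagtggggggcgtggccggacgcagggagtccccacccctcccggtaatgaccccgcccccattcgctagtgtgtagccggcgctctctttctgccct
The motif occurred 2 times before Tek, 7 times before Tie1 and 4 times before Kdr. Of 32851 such windows 93.4% held it at least once, with a median of 3. At least 7 matches were found in 3.82% of windows, at least 4 in 33.4% and at least 2 in 76.8%. A match describes letters in this window, and binding was not measured. Entries existed for 7 of the 9 members.

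Among the ligands, Vegfa is the main angiogenic VEGF. Its brighter probe read 3.88, 3.71, 3.84 and 3.16 in controls 1 to 4 and 3.92, 3.82, 3.76 and 3.56 in dtg 1 to 4. Control 4 was the lowest heart and dtg 4 the next, and the other 6 lay within a narrow band. Control hearts averaged 3.65 ± 0.33 (SD, n = 4) and dtg hearts 3.76 ± 0.15 (SD, n = 4), which gave a difference of 0.11 (SE 0.18, 95% interval -0.30 to 0.53, limma adjusted p = 1), or a signal 1.08 times as high in dtg hearts (interval 0.814 to 1.44). Without control 4 the difference turned to -0.049, and within slide 1 it was -0.056 and within slide 2 0.28. Without control 4, dtg 3 and dtg 4 (slide blocked) the difference was 0.060.

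Vegfb, a ligand of Flt1 that is abundant in heart muscle, read 4.50, 4.31, 4.10 and 4.23 in controls 1 to 4 and 4.36, 4.11, 4.22 and 4.40 in dtg 1 to 4. The order followed the slide: all 4 hearts of slide 1 lay above all 4 of slide 2, with means of 4.39 and 4.16. Of its variance over the 8 hearts 75.9% lay between slides and 0.254% between groups, where the medians over all features were 17.0% and 2.92%. The slides did not overlap for 17.4% of all features, and among the members this held for Vegfb alone at the level of genes. The difference between groups was -0.013 (SE 0.12, 95% interval -0.30 to 0.27), with -0.023 within slide 1 and -0.0032 within slide 2, and it turned to 0.057 without control 1, 0.042 without dtg 2 and 0.0040 without dtg 3.

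Vegfc, the ligand of lymphatic growth that acts mainly through Flt4, read 0.39, 0.31, 0.47 and 0.46 in controls and 0.63, 0.33, 0.37 and 0.39 in dtg hearts. Only dtg 1 lay above the highest control, and the other 3 dtg hearts lay inside the control range. The difference was 0.024 (SE 0.11, 95% interval -0.22 to 0.27), or 1.02 times (interval 0.860 to 1.20). Without dtg 1 it was -0.040, without control 2 -0.0075, and with median scaling -0.061.

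Angpt1, the activating ligand of Tek, had a 2.23-fold range over the hearts, wider than that of the brightest probe of any other ligand. It read 0.40, 0.25, 1.15 and 1.40 in controls 1 to 4 and 0.59, 0.41, 0.27 and 1.32 in dtg 1 to 4. Control 4, dtg 4 and control 3 formed a high set, and the other 5 hearts lay between 0.25 and 0.59. The means were 0.80 ± 0.56 (SD, n = 4) and 0.65 ± 0.47 (SD, n = 4), and the difference of -0.15 (SE 0.33, 95% interval -0.90 to 0.60, limma adjusted p = 1) was smaller than either SD. The slides disagreed, with 0.63 on slide 1 and -0.94 on slide 2, and leaving out control 4 gave 0.050. Leaving out control 4, dtg 3 and dtg 4 (slide blocked) gave -0.16.

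Angpt2, the context-dependent antagonist, read -1.14, -1.21, -0.99 and -0.89 in controls and -1.10, -1.10, -1.18 and -1.19 in dtg hearts. The dtg hearts lay close together, inside the control range, and control 3 and control 4 were highest. The difference was -0.086 (SE 0.10, 95% interval -0.33 to 0.16), or 0.942 times (interval 0.797 to 1.11). It was 0.027 within slide 1 and -0.20 within slide 2, -0.14 without control 2 and -0.031 without control 4.

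Among the receptors, Flt1 read 3.42, 3.53, 3.32 and 3.84 in controls 1 to 4 and 3.32, 3.35, 3.68 and 3.46 in dtg 1 to 4. Control 4 and dtg 3 were the highest hearts, and the remaining 6 spanned 3.32 to 3.53. The difference was -0.079 (SE 0.15, 95% interval -0.41 to 0.26), similar within both slides at -0.085 and -0.073. It turned to 0.026 without control 4 and to 0.16 with normexp, but was -0.085 with normexp without dark spots. With control 4, dtg 3 and dtg 4 left out (slide blocked) it was -0.079.

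Kdr had the widest range of the members when the brightest probe stood for each gene. That probe, which is spotted 10 times on the array, read 3.01, 2.81, 2.68 and 1.80 in controls 1 to 4 and 2.73, 2.83, 2.14 and 1.78 in dtg 1 to 4. Control 4 and dtg 4 were lowest, dtg 3 was intermediate, and the other 5 hearts lay between 2.68 and 3.01. The hearts spanned a 2.34-fold range. The 10 spots of an array had a coefficient of variation of 4.12% to 6.79%, which covers spot noise and not labelling, hybridization or RNA quality. Control hearts averaged 2.58 ± 0.53 (SD, n = 4) and dtg hearts 2.37 ± 0.49 (SD, n = 4), which gave a difference of -0.21 (SE 0.33, 95% interval -0.96 to 0.54, limma adjusted p = 1), or 0.866 times (interval 0.515 to 1.46). The direction turned between slides, at -0.65 within slide 1 and 0.24 within slide 2. Single hearts moved it from -0.47 without control 4 to -0.012 without dtg 4, and it was -0.044 in the 5 hearts without control 4, dtg 3 and dtg 4 (slide blocked).

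Tie1, the relative of Tek, read 1.304, 0.987, 1.002 and 0.957 in controls and 1.105, 1.068, 0.757 and 0.797 in dtg hearts. Control 1 stood above the other controls, and dtg 3 and dtg 4 were the lowest hearts. The difference of -0.13 (SE 0.13, 95% interval -0.44 to 0.18, limma adjusted p = 1) was -0.19 within slide 1 and -0.067 within slide 2, and -0.050 without control 1. Tek itself read -0.18, -0.41, -0.26 and -0.24 in controls and -0.10, -0.37, -0.52 and -0.54 in dtg hearts. Here too dtg 4 and dtg 3 were lowest, while dtg 1 was highest. The difference was -0.11 (SE 0.13, 95% interval -0.40 to 0.18), with -0.028 within slide 1 and -0.19 within slide 2, and it ranged from -0.20 without dtg 1 to -0.058 without dtg 4 (-0.067 without dtg 3). In the other 5 hearts (control 4, dtg 3 and dtg 4 left out, slide blocked), Tek differed by 0.063 and Tie1 by 0.0051.

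**Figure D2:**
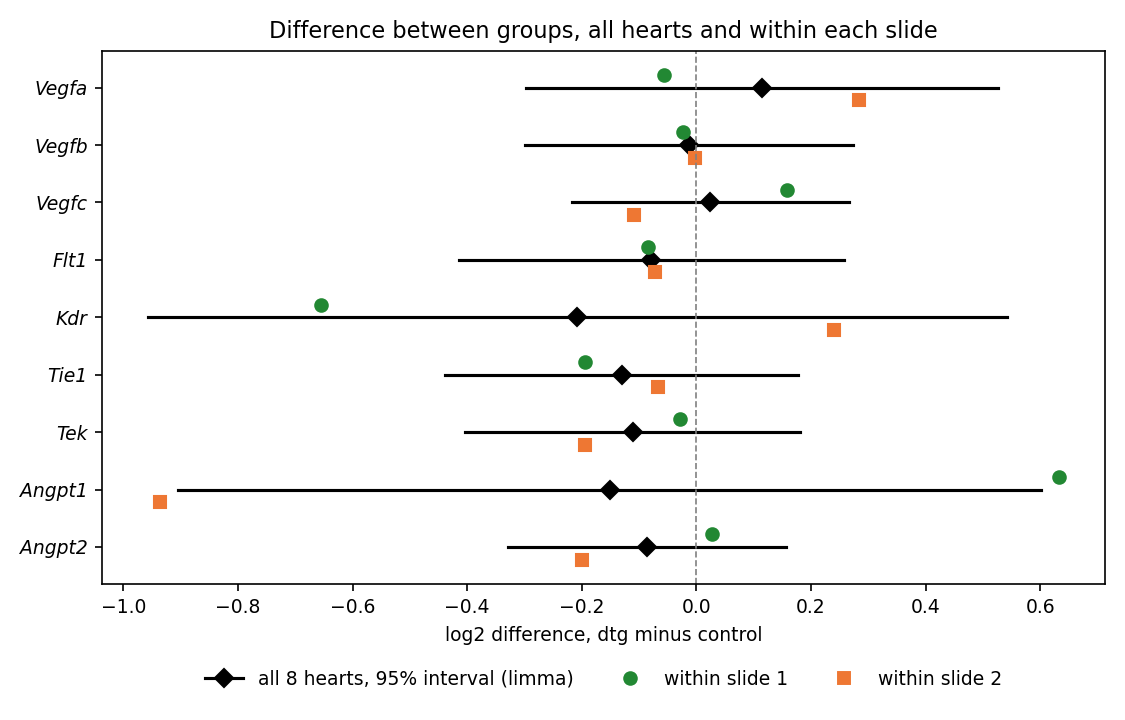
Log2 difference, dtg minus control, for each member: diamonds with lines give the difference and its 95% limma interval over 8 hearts, green circles and orange squares the difference within slide 1 and slide 2 (2 hearts a group, no error shown). Each interval includes 0, and the slides give opposite signs for Kdr (-0.65 and 0.24) and Angpt1 (0.63 and -0.94), among others.

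The 2 probes of Kdr did not rank the hearts alike. The second, a single spot on the array, read 2.27, 2.48, 1.06 and 1.42 in controls 1 to 4 and 2.10, 1.39, 1.43 and 2.40 in dtg 1 to 4. It was high in every heart of slide 1, including dtg 4, where the brighter probe was lowest, and low in every heart of slide 2, with means of 2.31 and 1.32. The slides did not overlap for 16.1% of all probes. The difference between groups at this probe was 0.023 (SE 0.37, 95% interval -0.83 to 0.88). The SD over hearts of the difference between the Kdr probes was 0.692, at percentile 91.2 of the 3726 genes with at least 2 kept probes, whose median was 0.293. Both probes carry the same RefSeq accession, NM_010612.

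The second probe of Vegfa, on transcript NM_001025257 where the brighter is on NM_001025250, read 1.34, 1.75, 1.60 and 0.30 in controls 1 to 4 and 1.84, 1.93, 1.61 and 0.32 in dtg 1 to 4. Control 4 and dtg 4 were lowest at both Vegfa probes, and the drop was wider at the second, whose range was 3.11-fold against 1.695-fold. The difference between groups was 0.18 (SE 0.44, 95% interval -0.83 to 1.18), the same direction as the brighter probe and no closer to the threshold. The probe pair of Vegfa differed with an SD of 0.475, at percentile 76.1.

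**Figure D3:**
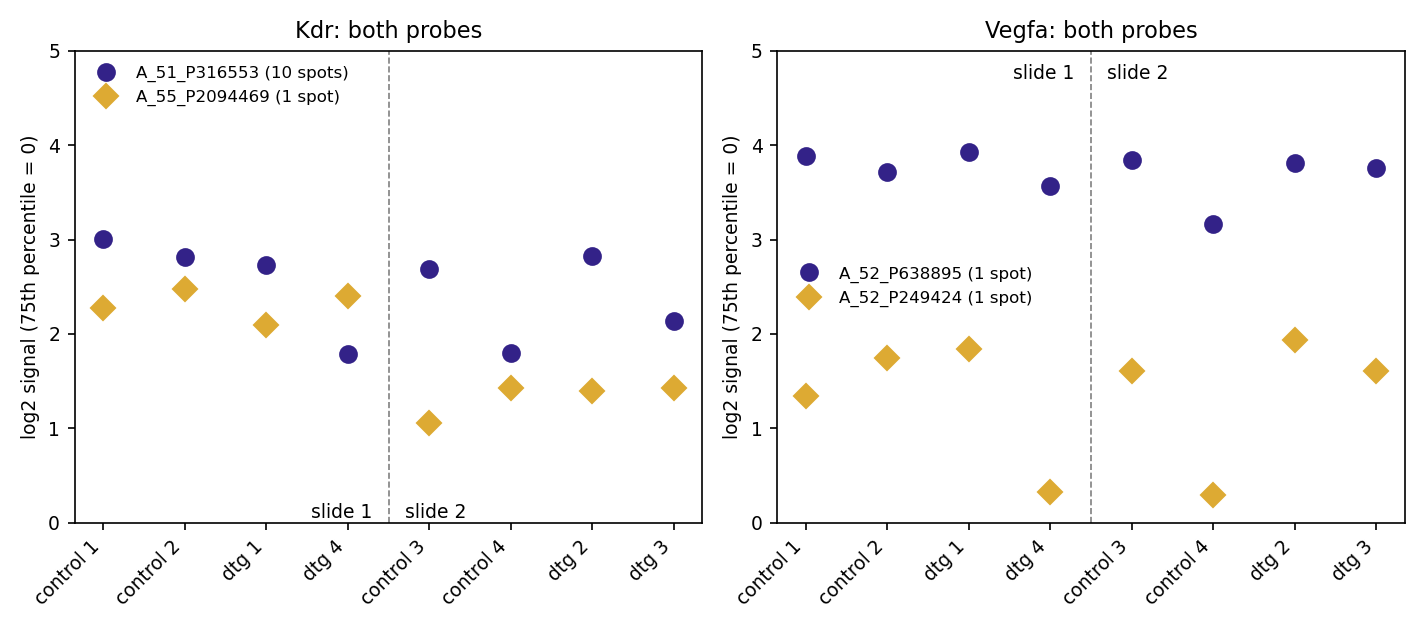
Log2 signal (array's 75th percentile at 0) of both probes of Kdr (left) and Vegfa (right) in each heart, ordered by slide, with the brighter probe as circles and the other as diamonds. The second Kdr probe is between 2.10 and 2.48 on slide 1 and between 1.06 and 1.43 on slide 2, and both Vegfa probes are lowest in control 4 and dtg 4.

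Set out by heart, with the brighter probe for Vegfa and Kdr, the members did not move as a block. In control 4, Kdr and Vegfa were low (1.80 and 3.16) while Flt1, Angpt1 and Angpt2 were each at their highest (3.84, 1.40 and -0.89). In dtg 4, Kdr, Tie1 and Tek were low and Angpt1 was high. In dtg 3, Kdr, Tie1 and Tek were low as well, but Angpt1 was among the lowest at 0.27 and Flt1 was high. Of the 4 receptors 0 were above their 8-heart mean in dtg 4 and 1 in dtg 3, against 2 or 3 in each of the other 6 hearts. This count depends on the Kdr probe, since the second read 2.40 in dtg 4, above its own mean. Beside these values, the mean of all 15 endothelial markers was 1.68 in control 4, 1.63 in dtg 3 and 1.51 in dtg 4, and 1.51 to 1.67 in the other hearts, so that dtg 4 was the second lowest after control 2. Single endothelial markers went both ways in dtg 4. Cldn5 was lowest there, at 1.75 against 2.21 to 2.60 elsewhere. Cdh5 was highest there, at 2.54 against 1.74 to 2.39, as was Plvap, at 0.62 against 0.10 to 0.55. The mean of Pecam1, Cdh5, Emcn, Eng, Egfl7 and Esam alone was 2.30 in control 4, 2.23 in dtg 3 and 2.14 in dtg 4, and 2.07 to 2.26 in the other hearts. The group means of these 6 genes were 2.18 ± 0.12 (SD, n = 4) and 2.17 ± 0.043 (SD, n = 4). The 15 endothelial markers spanned from 1.40-fold (Mmrn2) to 2.13-fold (Erg) over the 8 hearts with a median of 1.48-fold, and the brighter Kdr probe 2.34-fold. Some genes of other lists were low in the same hearts as that probe, as was seen after the fact: Rgs5, a pericyte marker, read 2.73 in control 4 and 2.77 in dtg 4 against 3.37 to 3.80 elsewhere. The fibroblast marker Dcn read 5.92 and 6.03 against 6.483 to 6.995, the endothelial phosphatase Ptprb 1.82 and 2.02 against 2.76 to 3.20, and the lymphatic factor Prox1 -2.69 and -2.65 against -1.68 to -1.10. Other genes of the marker lists were high there: the fibroblast marker Lum read 3.56 and 3.03 against 2.53 to 2.89. The pericyte marker Higd1b read 2.38 and 2.25 against 1.85 to 2.08. Pdpn, a lymphatic marker, was highest in control 4, at 0.83. List means in control 4 and dtg 4 were 2.33 and 2.28 for fibroblasts (2.08 to 2.33 elsewhere). They were 2.02 and 1.96 for pericytes and smooth muscle (2.07 to 2.18) and 0.43 and 0.27 for lymphatics (0.33 to 0.60). The part of any cell type, or of the arrays that stood apart, in the receptor values was not tested. With the mean of the 6 endothelial genes as a covariate Kdr differed by -0.24, Tie1 by -0.13 and Tek by -0.10, and no member passed.

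**Figure D4:**
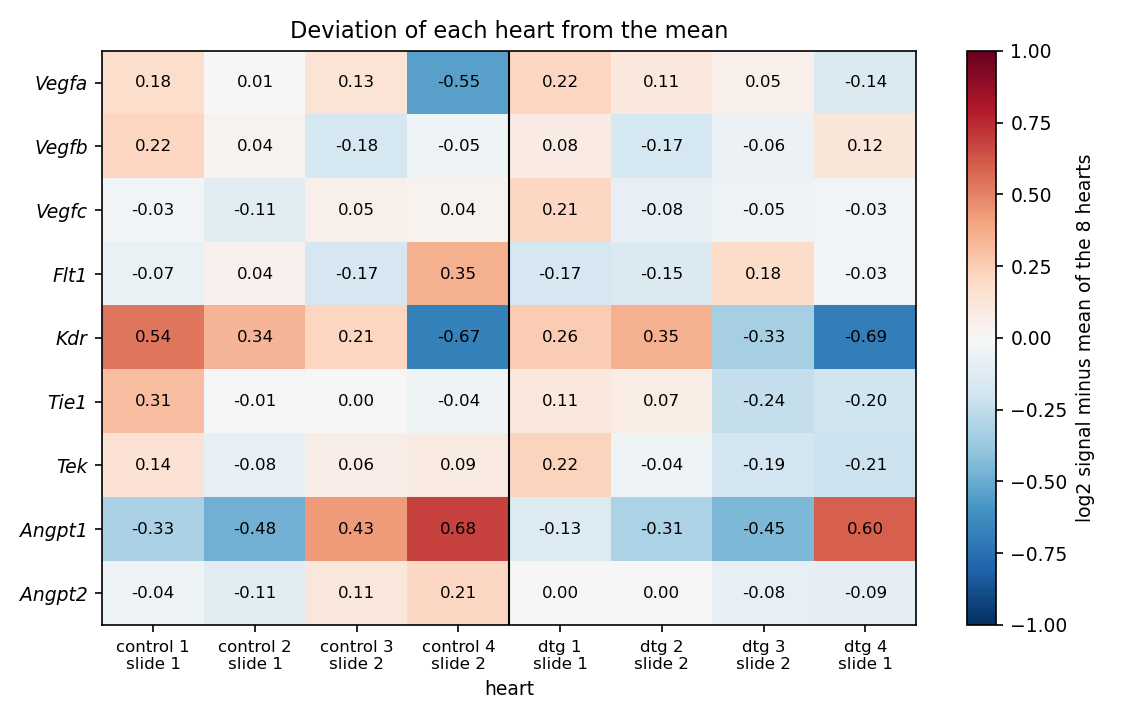
Each member's log2 signal minus its mean over the 8 hearts, printed in every cell and coloured from blue (lower) to red (higher), with hearts in columns and the black line between groups. Kdr is 0.67 below its mean in control 4 and 0.69 below in dtg 4, Angpt1 is 0.68 and 0.60 above its mean in the same hearts, and the 4 receptors, Kdr at its brighter probe, are below their means in dtg 4.

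The spread of Angpt1 ran alongside that of the mean of the atrial markers, though not of each marker. The mean of 8 atrial markers was 2.73 in control 4, 2.48 in dtg 4 and 2.35 in control 3, the same 3 hearts and the same order as for Angpt1, and it lay between 0.18 and 1.73 in the other 5. Myl7, a myosin light chain of atrial muscle, varied 20.6-fold over the hearts, and Kcnj3 1.66-fold. Myl7, Myl4, Sln, Nppa, Gja5 and Kcnj3 were highest in these 3 hearts. Bmp10 was highest in dtg 1, at -3.25. Kcna5 went another way: it was highest in control 2, at 0.13, and read -0.31, -0.53 and -0.38 in control 3, control 4 and dtg 4. Of the 8 atrial markers 7 were lower in dtg hearts and 0 passed the adjusted threshold, and their mean ranged from 0.41 to 2.73 in control and 0.18 to 2.48 in dtg hearts. With that mean as a covariate, an alternative chosen after the values were seen, the residual SD of Angpt1 went from 0.518 to 0.245 and its group difference from -0.15 to 0.092 (SE 0.18). Of 21406 features with a value on every array, 0.439% showed a fall in residual SD at least as large. Under the same covariate the SE of the Kdr difference fell to 90.7% of its value. The SE rose for Vegfa, Vegfb, Vegfc, Flt1, Tek, Tie1 and Angpt2, to between 101% (Vegfc) and 111% (Flt1) of its value. The Kdr difference itself moved from -0.21 to -0.37 and that of Vegfa from 0.11 to 0.056. The part of atrial tissue in the Angpt1 values was not tested.

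**Figure D5:**
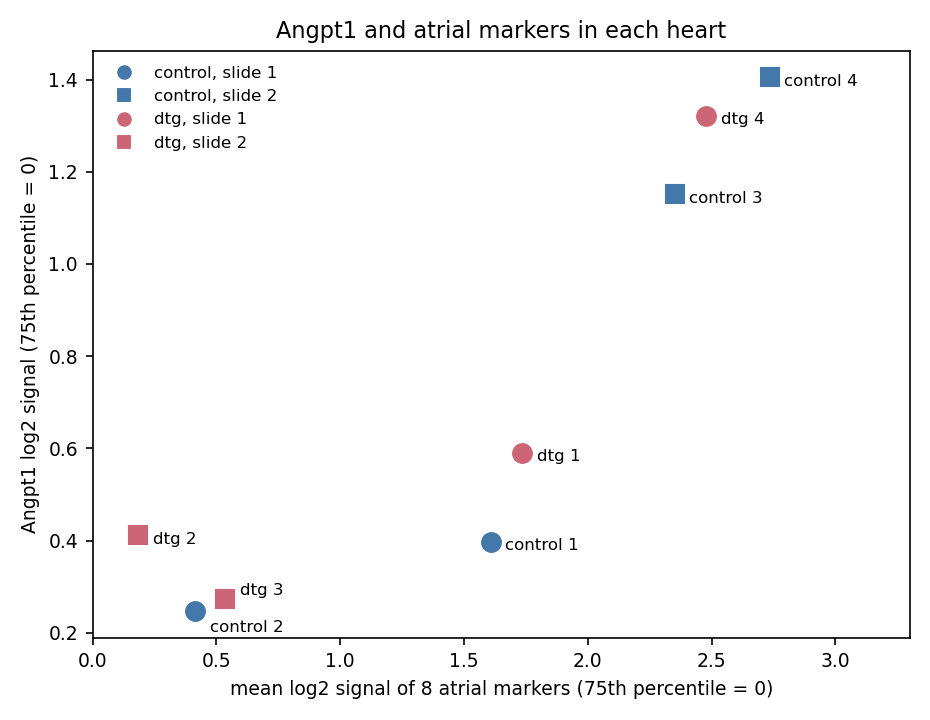
Log2 signal of Angpt1 against the mean log2 signal of 8 atrial markers (both with the array's 75th percentile at 0), 1 labelled point per heart, coloured by group and shaped by slide. Control 3, control 4 and dtg 4 are highest on both axes, at 2.35, 2.73 and 2.48 for the markers and 1.15, 1.40 and 1.32 for Angpt1.

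Nor did other genes of the same families pass the test. Of 7 further ligands, receptors and co-receptors 6 were measured, 4 higher and 2 lower in dtg hearts, with a median difference of 0.025 and 0 past the adjusted threshold. Vegfd, a second lymphatic ligand, differed by 0.21 (SE 0.12), Flt4, the receptor of Vegfc and Vegfd, by -0.28 (SE 0.16), and Pgf, a ligand of Flt1, by 0.11 (SE 0.12). The ligand Angpt4 was well above background on 1 of 8 arrays and was not tested. Downstream of the VEGF receptors 14 of 15 genes were measured, 9 higher and 5 lower, with a median of 0.0091 and 0 called. Plcg1, the phospholipase that Kdr activates, differed by -0.26 (SE 0.33), Plcg2 by 0.12 (SE 0.11) and Cdc42 by 0.093 (SE 0.098). Plcg1 was lowest in dtg 4, control 4 and dtg 3 (-3.03, -2.70 and -2.67, against -1.95 to -1.77 in the other hearts), the same 3 hearts in which the brighter Kdr probe was low, a likeness noticed after the values were seen. With the mean of all its kept probes Plcg1 differed by 0.037.

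In the list of sprouting and Notch genes of endothelium, 5 of 15 were higher and 10 lower, with 0 past the adjusted threshold and 1 at an unadjusted p under 0.05. Over all features 0.76% reached that unadjusted p and 0.546% had groups without overlap. That gene was Notch1, a receptor that restrains tip cells during sprouting. It read -0.68, -0.93, -0.69 and -1.07 in controls and -0.61, -0.31, -0.24 and 0.79 in dtg hearts, without overlap between groups, and dtg 4 stood highest. The difference was 0.75 (SE 0.29, limma unadjusted p = 0.0313, adjusted p = 1), 0.90 and 0.61 within the slides, 0.46 without dtg 4, and 0.28 when control 4, dtg 3 and dtg 4 were left out and slide was blocked. Unc5b, a guidance receptor of tip cells, differed by -0.16 (SE 0.19) and the Notch ligand Dll4 by -0.15 (SE 0.19). The list of hypoxia response genes holds regulators of the pathway beside genes that, like Vegfa, are induced when oxygen is low. Its genes were higher for 6 and lower for 10 of 16, with a median of -0.046 and 0 called. Adm, a vasodilator peptide, differed by -0.23 (SE 0.12), the oxygen sensor Egln1 by -0.22 (SE 0.24) and Ldha, lactate dehydrogenase, by -0.081 (SE 0.10).

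Marker lists showed no adjusted call in any cell type. Endothelial markers were higher for 8 and lower for 7 of 15 (median 0.0084; Cldn5, a tight junction protein, differed by -0.18, SE 0.16). Lymphatic markers were higher for 1 and lower for 3 of 4, cardiomyocyte markers 6 and 4 of 10, fibroblast markers 2 and 6 of 8 and macrophage markers 2 and 4 of 6. Pericyte and smooth muscle markers were higher for 5 and lower for 6 of 11. The actin of smooth muscle, Acta2, differed by -0.37 (SE 0.11, limma unadjusted p = 0.00939, adjusted p = 1) without overlap between groups, -0.27 and -0.46 within the slides, -0.13 with normexp and -0.38 with normexp without dark spots. It was named for the smallest unadjusted p of its list. Over all features 0.76% had an unadjusted p under 0.05 and 0.546% had groups without overlap. The 5 measured erythroid markers were all higher in dtg hearts, with a median of 0.43, where 42.6% of all features were lower. Hbb-b2, a beta globin, differed by 0.50 (SE 0.21, limma unadjusted p = 0.0437, adjusted p = 1), with 0.85 and 0.16 within the slides. Within slide 2, Hba-a2 (-0.0040) and Slc4a1 (-0.18) were lower in dtg hearts, and the other erythroid markers were higher. Of 6 lung markers 2 were measured, and no probe of Sftpc, Sftpb or Sftpa1, which define lung epithelium, was well above background on any array.

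Across the 8 arrays, after centring on slides, the genes most like a member among 14282 named genes were found by Pearson's r, given as a description of these arrays alone. The brighter probe stood for Kdr and Vegfa throughout. The second Kdr probe did not rank the hearts alike, so the values for Kdr belong to its brighter probe. Dag1, which encodes dystroglycan, was among the 3 most like Kdr (r = 0.993), with Dennd5b (r = 0.995) and Map1b (r = 0.992). Vegfa was most like Eif3f (r = 0.991), Cspp1 (r = 0.989) and Shank3 (r = 0.987). Those most like Angpt1 were Dusp26 (r = 0.993), Upk1b (r = 0.990) and Gng2 (r = 0.987). For Tie1 they were Mark1 (r = 0.986), Myd88 (r = 0.980) and Necap2 (r = 0.977), and for Tek Kdelr2 (r = 0.957), Cmtm4 (r = 0.950) and Tmem43 (r = 0.941). Flt1 ran with Tsen54 (r = 0.992), Eif4a3l1 (r = 0.991) and Mfge8 (r = 0.989), Vegfb with Itga5 (r = 0.990), Wdr36 (r = 0.982) and Pcsk7 (r = 0.965), Angpt2 with Yipf2 (r = 0.986), Smoc1 (r = 0.970) and Csrp2 (r = 0.970), and Vegfc with Clec2l (r = 0.922), Scd4 (r = 0.905) and Xkr8 (r = 0.890). Between members themselves r was highest for Tek and Tie1 at 0.797, followed by Kdr and Vegfa at 0.774 and Kdr and Tie1 at 0.758, and lowest for Vegfa and Flt1 at -0.807. All of these rest on the same 8 arrays, 3 of which stood apart, and the genes listed were picked as the closest matches.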

How the data were processed

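RNA of 4 control and 4 dtg hearts was measured on 1-colour (Cy3) arrays from 100 ng of total RNA, per the labels' protocols. The authors deposited each array's spots as linear intensity values, read with Agilent Feature Extraction 10.7.3.1 and local background subtraction, per the file headers. A second deposited table holds log2 values, which matched quantile normalized log2 signals centred per probe (r at least 0.99989) and had column medians of -0.0154, -0.0168, 0.0323 and 0.0178 for controls and 0.0051, 0.00689, -0.0322 and -0.00946 for dtg hearts. It served as an alternative.

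Control spots and outlier spots were left out, spots of a probe averaged on the log2 scale, and the array's 75th percentile subtracted (737.6 to 1027 intensity units). Probes well above background on at least 4 of 8 arrays were kept, 26118 of 39429, and the brightest probe stood for its gene. RefSeq accessions named 26369 probes through the RefSeq gene annotation. The promoter windows (GRCm38.p6) were used for the motif counts alone. Differences are dtg minus control from limma (version 3.58.1, R version 4.3.3; lmFit with eBayes, without covariates) with Benjamini-Hochberg adjustment over 21434 features, checked on simulated data. The median SE of a difference over these 8 arrays was 0.178, and their number limits the precision.

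The members and the 13 lists were chosen with earlier results of these data known. Named genes are the members, Igf1r, up to 3 genes per list by smallest unadjusted p, some of which are not described, and the 3 genes most like each member. Mmrn2 and Erg were picked afterwards as the ends of a range. The 24 alternatives cover background correction (normexp on pixel medians), scaling, filters, probe choice, blocks, weights, covariates and left-out hearts. Replicate numbers were not used to pair the samples in the main fit.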

Additional observations from a re-analysis of the deposited data

Results flagged for a closer look

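In groups of 4 hearts, the highest or lowest value was set against its nearest neighbour for 20 groups, among them both groups of each member. Tie1 in control 1 stood apart, at a log2 signal of 1.30 where the other controls lay between 0.957 and 1.002, a gap of 0.872 of the group's range, past Dixon's 95% critical value. Chance marks about 1 in 20 such groups. Without control 1 the Tie1 difference was -0.050 instead of -0.13.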

How the results depend on the processing

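Over the 24 alternatives no member and no other feature passed an adjusted p of 0.05, and the lowest adjusted p of a member was 0.845. Of the values of members under these alternatives 191 kept their direction and 25 turned, all from differences within the replicate spread. Part of the 191 could not have turned. Blocking on slide or on replicate number and both filter settings returned the main difference of every member. The mean of all kept probes did so for members with a single probe. The count is therefore no measure of how stable the directions are. With normexp, Vegfb differed by 0.24, Flt1 by 0.16, Angpt1 by 0.018, Pgf by -0.042, Ldha by 0.18 and Cldn5 by 0.058, with a fitted background of -1740 on control 4 and -461.9 on dtg 4. Without spots darker than their local background, Vegfc differed by -0.010, and with median scaling by -0.061. The mean of all kept probes gave Plcg1 0.037. Within slide 1 Vegfa differed by -0.056, Angpt1 by 0.63, Angpt2 by 0.027 and Myl7 by 1.73, and within slide 2 Vegfc by -0.11, Kdr by 0.24, Plcg1 by 0.048, Dll4 by 0.070, Egln1 by 0.055 and Cldn5 by 0.0099. Array weights gave Tek 0.010, Angpt1 0.19, Angpt2 0.032 and Myl7 0.47. With control 4, dtg 3 and dtg 4 left out and slide blocked, Tek differed by 0.063, Tie1 by 0.0051 and Plcg1 by 0.052. With the atrial mean as a covariate, added after seeing the data, Vegfb differed by 0.0022 and Angpt1 by 0.092. Leaving out each heart gave Vegfa -0.049 to 0.19, Vegfb -0.075 to 0.057, Vegfc -0.040 to 0.057, Flt1 -0.15 to 0.026, Angpt1 -0.38 to 0.050, Angpt2 -0.14 to -0.031, Kdr -0.47 to -0.012, Tek -0.20 to -0.058, Tie1 -0.19 to -0.050, Dll4 -0.29 to 0.011 and Egln1 -0.35 to 0.022. The cause of the turns in direction was not tested. The features at an unadjusted p under 0.05 numbered 163, between 13 with normexp and 761 with array weights. With the replicate number as a block 276 reached it and 0 passed the adjusted threshold. Deviations of same-numbered hearts correlated at 0.54, -0.54, 0.15 and 0.16. Control 1 and dtg 1 share slide 1, where control 2 and dtg 2 lie on different slides. These correlations cannot show whether same-numbered hearts were paired by animal or handling, and the numbers were not used as pairs in the main fit. The processed signals of the members ranged from 330.9 intensity units (Angpt2) to 19378 (Vegfb); every probe was well above background on all 8 arrays.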
